A study of Mus musculus with 3 samples.

Results

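The genes described here handle zinc and copper in the intestinal epithelium: the Slc30 and Slc39 zinc transporters, the copper transporters and chaperones, the metallothioneins and their regulator Mtf1. They were taken by gene symbol alone, as all Slc30a and Slc39a genes plus Slc31a1, Slc31a2, Atp7a, Atp7b, Atox1, Ccs, Mt1 to Mt4 and Mtf1. The rule found 35 of the 24346 genes listed in the deposited files. The rule itself uses no expression value.

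The values come from RNA sequencing of mouse epithelial cells, with 1 library each from the large intestine, the upper small intestine and the lower small intestine. Per the labels, the cells were released from opened, washed intestine by shaking in EDTA, with no sorting described, and libraries came from a stranded mRNA kit. The labels give no age, sex, treatment or number of animals, and prefix each source name with SPFm without expanding it. A strain entry stands on the upper small intestinal library alone and names MC38, which the label calls a colorectal cancer model. If the entry is right, a difference of strain or of cancer model cannot be told apart from region in comparisons with that library. With 1 library per region there is no replicate check, no p-value and no SD, and every difference below describes these libraries.

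Zinc transporters fall into 2 families of opposite direction. Proteins of the SLC30 family, called ZnT, move zinc out of the cytosol, either across the plasma membrane or into vesicles and organelles. Proteins of the SLC39 family, called ZIP, move it into the cytosol. Metallothioneins are small cysteine-rich proteins that bind zinc and copper in the cytosol, and the zinc-sensing transcription factor MTF1 switches on their genes through short DNA motifs called metal response elements. Copper enters through CTR1, is handed on by chaperones and leaves or reaches the secretory pathway through the pumps ATP7A and ATP7B.

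Levels are in FPKM, a read number corrected for transcript length and library size, so that genes of different length can be compared. A level of 1 FPKM over 2 kb of transcript corresponded to roughly 16.9 reads in the large, 14.8 in the upper and 22.0 in the lower library, as judged from the steps between low values. Differences between libraries are on the log2(FPKM + 1) scale, which understates the differences of low genes. Genes that reached 1 FPKM in either library of a pair were taken as measured. With no test to be had, a measured gene was called by a rule of size, a log2 difference of 1 or more in either direction. Ratios are of FPKM, and the brackets after them are 95% Clopper-Pearson intervals from implied read numbers, which cover counting error only.

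Of the 35 members, 31 reached 1 FPKM in at least 1 library and 26 did so in all 3. Slc30a3, Slc30a8 and Slc39a12 were listed at 0 in every library. They encode ZnT3 of synaptic vesicles, ZnT8 of the insulin granules of beta cells and ZIP12, known from the brain. Slc39a2 stayed under 1 FPKM, between 0.177 and 0.308. Of the 31 measured members, 20 stayed within the rule of size in all comparisons and 11 were called in at least 1. Among all measured genes, 20.2% passed the rule in large against lower, 22.9% in large against upper and 6.84% in upper against lower. These shares are for single comparisons, so the count of 11 over all comparisons cannot be set against them. Member shares for each comparison are given further below. The 11 members were Mt2, Mt3, Mt4, Slc30a1, Slc30a2, Slc30a5, Slc30a10, Slc39a5, Slc39a8, Slc39a14 and Atp7b.

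**Figure D1:**
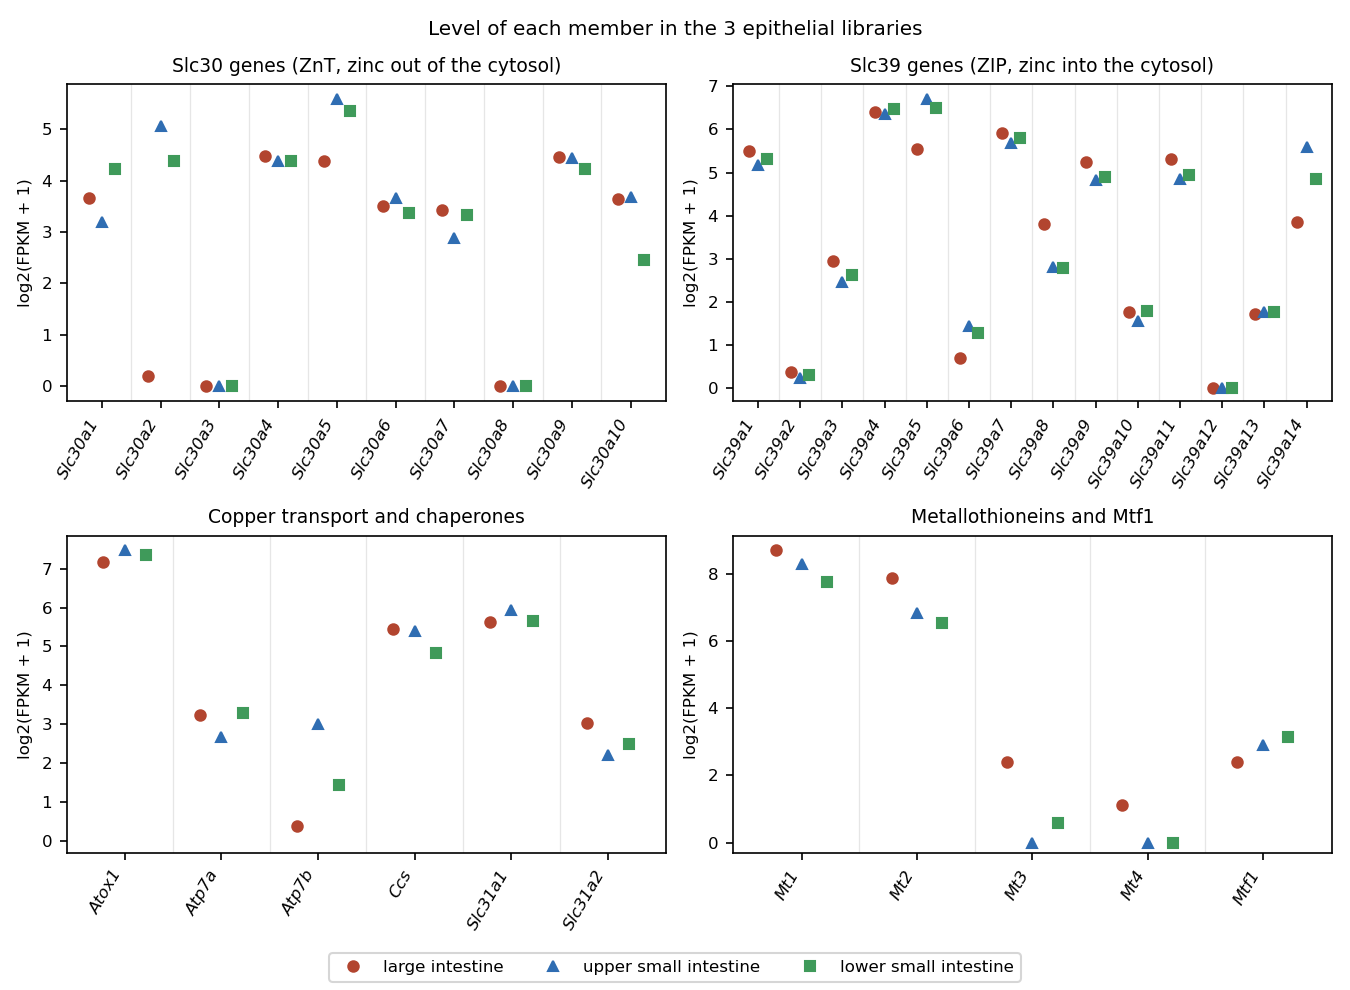
Level of each of the 35 members as log2(FPKM + 1) on the vertical axis, 1 point per library (circle, large intestine; triangle, upper small intestine; square, lower small intestine), in 4 panels by role. Mt1 and Mt2 lie highest of all members in the large intestine, and Slc30a2 and Atp7b stand near 0 there while reaching 32.5 and 7.11 FPKM in the upper small intestine.

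Mt1 and Mt2, the metal-inducible metallothioneins made in most tissues, were the most abundant members in the large intestine. Mt2 passed the rule of size against both small intestinal libraries, and Mt1 did so against neither. Mt3 and Mt4 were low, and they reached 1 FPKM in the large library alone, so past the filter they could only be called higher there. Their calls stayed with no filter on low values and were lost at a minimum of 5 FPKM. Mt1 had 411 FPKM in the large intestine, 313 FPKM in the upper and 214 FPKM in the lower small intestine. Mt2 had 233 FPKM in the large intestine, 112 FPKM in the upper and 90.6 FPKM in the lower small intestine. Both genes thus followed the same order of libraries, large above upper above lower, and that order held in each scaling tried. Their summed level was 644.9 FPKM in the large intestine, 425.6 FPKM in the upper and 304.3 FPKM in the lower small intestine. That sum made up 47.5%, 33.4% and 28.2% of the FPKM of all members in the large, upper and lower libraries.

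The large to lower ratio was 2.58 (2.28 to 2.92) for Mt2 and 1.93 (1.79 to 2.07) for Mt1. The large to upper ratio was 2.08 (1.82 to 2.38) for Mt2 and 1.31 (1.22 to 1.41) for Mt1. Mt2 therefore passed the rule of size in both comparisons, with log2 differences of 1.36 against lower and 1.05 against upper. Mt1 passed in neither as deposited, and its log2 difference of 0.94 against the lower library lay just short. The Mt1 to Mt2 ratio of FPKM was 1.76 in the large intestine, 2.79 in the upper and 2.36 in the lower small intestine. Upper to lower ratios were smaller, 1.47 (1.36 to 1.59) for Mt1 and 1.24 (1.07 to 1.44) for Mt2.

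Mt3, best known as the brain form, was at 4.30 FPKM in the large intestine, was listed at 0 in the upper and was at 0.509 FPKM in the lower small intestine. Those levels stood for about 16, 0 and 2 reads. Its large to lower ratio was 8.44 (2.44 to 93.2), and its log2 differences of 2.40 against upper and 1.81 against lower both passed the rule. Mt4, known from stratified squamous epithelium, was at 1.19 FPKM in the large intestine, about 4 reads with an exact Poisson interval of 1.09 to 10.2, and was listed at 0 in both small intestinal libraries. The same kind of interval for a count of 0 reached up to 3.69 reads. A separate floor of 3 reads stood for 1.02 FPKM in the upper and 0.686 FPKM in the lower library. The Mt4 difference thus rests on very few reads.

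The 4 metallothionein genes lie side by side on the plus strand of chromosome 8 in the order Mt4, Mt3, Mt2, Mt1, from 94137197 to 94180327 (mm10), a stretch of 43131 bases. Mt1 spans 94179082 to 94180327 and Mt2 spans 94172664 to 94173568. Reads of Mt2 may include those of Gm45774, an antisense gene annotated over 749 bases of it, if strand was not used in counting. Mtf1, which encodes the regulator itself, did not share the order: it had 4.27 FPKM in the large intestine, 6.41 FPKM in the upper and 7.86 FPKM in the lower small intestine. Its large to lower ratio was 0.544 (0.319 to 0.899), and it passed the rule of size in no comparison.

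The sequence around the start of each metallothionein gene is shown because Mt2 was called in the large intestine and because MTF1 acts through letters that can be searched there. The windows are RefSeq promoters of GRCm38.p6, 250 bases before to 50 after the annotated transcript start, 5′ to 3′ on the gene's strand. Capitals mark matches to the core of the metal response element, TGCACNC or TGCGCNC, on either strand. The windows are chr8:94178839-94179138 for Mt1, chr8:94172368-94172667 for Mt2, chr8:94152357-94152656 for Mt3 and chr8:94136954-94137253 for Mt4.
Mt1: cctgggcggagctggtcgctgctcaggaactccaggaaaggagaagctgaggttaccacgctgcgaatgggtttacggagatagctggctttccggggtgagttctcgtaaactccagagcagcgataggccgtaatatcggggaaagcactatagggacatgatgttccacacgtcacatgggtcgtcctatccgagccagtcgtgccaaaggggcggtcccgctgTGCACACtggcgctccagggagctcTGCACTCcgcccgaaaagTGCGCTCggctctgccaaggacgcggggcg
Mt2: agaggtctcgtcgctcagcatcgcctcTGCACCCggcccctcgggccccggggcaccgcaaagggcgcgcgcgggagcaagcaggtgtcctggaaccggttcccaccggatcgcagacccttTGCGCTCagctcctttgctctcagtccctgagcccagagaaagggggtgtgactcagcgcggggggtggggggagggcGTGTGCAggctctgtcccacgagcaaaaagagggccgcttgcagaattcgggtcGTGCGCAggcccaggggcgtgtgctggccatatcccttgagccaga
Mt3: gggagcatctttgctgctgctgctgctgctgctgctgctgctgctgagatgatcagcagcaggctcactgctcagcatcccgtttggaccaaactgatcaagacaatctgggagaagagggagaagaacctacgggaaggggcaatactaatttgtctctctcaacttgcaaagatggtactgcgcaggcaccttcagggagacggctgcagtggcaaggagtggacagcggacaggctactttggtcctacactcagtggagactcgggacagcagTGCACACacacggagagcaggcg
Mt4: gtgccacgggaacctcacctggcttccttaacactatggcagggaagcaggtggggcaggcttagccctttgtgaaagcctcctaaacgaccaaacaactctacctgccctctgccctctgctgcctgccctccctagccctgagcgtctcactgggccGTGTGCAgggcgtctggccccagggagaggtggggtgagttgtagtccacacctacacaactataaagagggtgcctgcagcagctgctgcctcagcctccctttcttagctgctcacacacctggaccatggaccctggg

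Mt2 held 4 matches, Mt1 held 3, and Mt3 and Mt4 held 1 each. The 3 matches of Mt1 ran along the gene's strand, with first bases 23 before and 2 and 20 after the RefSeq start. Those of Mt2 lay on both strands, at -223, -128, -50 and 4. Among 32851 RefSeq promoter windows of the same length, 25.7% held at least 1 match of either form, 1.97% held 3 or more and 0.52% held 4 or more. Start sites differ between annotations: GENCODE M21 also has transcripts of Mt1 that begin 122 and 152 bases after the RefSeq start, and both of its Mt2 transcripts begin after it, by 46 and 242 bases. The windows end 50 bases after the RefSeq start, so letters just before the starts at 122, 152 and 242 were not searched. A match describes letters in these windows and is not a binding site.

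Windows were found for 30 of the 35 members, 35 windows in all. At least 1 match was present in 19 of the 35 windows, 54.29%, where 25.7% of all windows had one. TGCACNC was in 40.0% of the members' windows against 12.6% of all windows, and TGCGCNC in 28.6% against 15.4%. These shares are over windows, 5 genes having more than 1, and were not tested. Besides Mt1 and Mt2, 3 or more matches were found in Slc30a4 and Slc30a10. Slc30a4, with 3 matches, passed the rule of size in no comparison, and the Mtf1 window held no match.

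**Figure D2:**
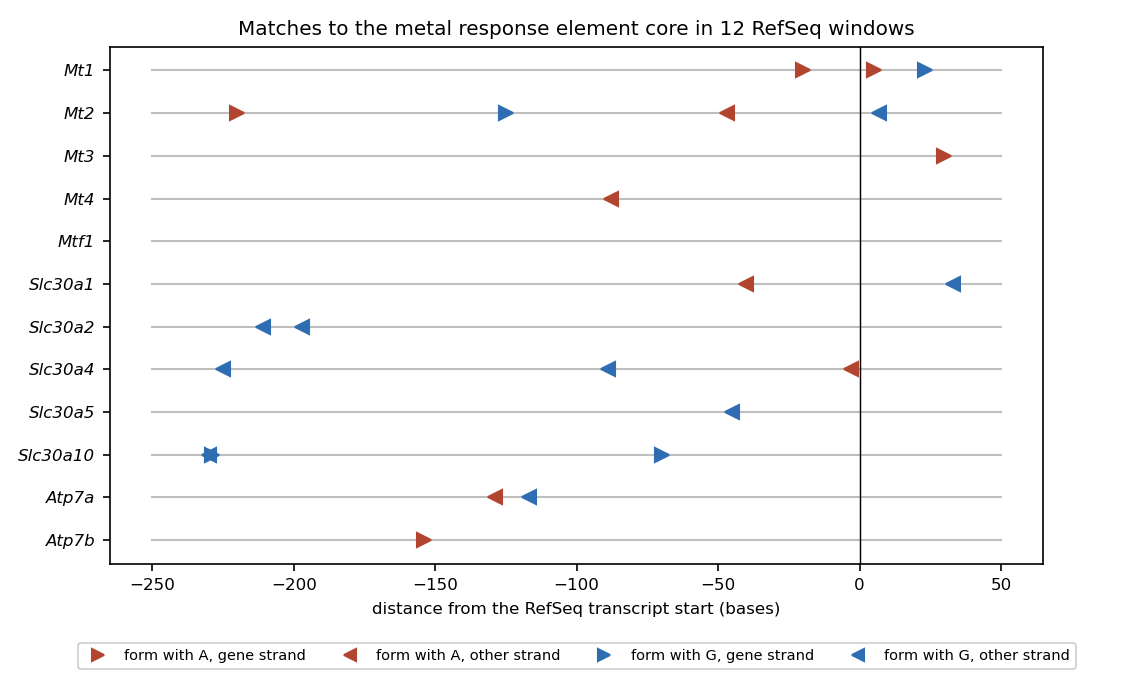
Positions of the matches in 12 RefSeq windows, with the distance in bases from the RefSeq transcript start on the horizontal axis and 1 line per gene. Triangles point along the gene's strand or against it, red for the form with A in the fourth place and blue for the form with G. Mt2 carries 4 matches and Mt1 carries 3, while Mtf1 carries none. Letters more than 50 bases after the RefSeq start were not searched.

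Zinc exporters, the Slc30 genes, differed most by a single member. Slc30a2 encodes ZnT2, which loads zinc into secretory vesicles and is known from the granules of Paneth cells and from the mammary gland and pancreas. It was all but missing from the large intestine, at 0.14 FPKM or about 1 read, with 32.5 FPKM in the upper and 19.9 FPKM in the lower small intestine. Its large to upper ratio was 0.00431 (7.51e-05 to 0.0167) and its large to lower ratio 0.00705 (0.000123 to 0.0274). These were the widest differences of any member, -4.88 and -4.19 on the log2(FPKM + 1) scale. Between the small intestinal libraries the upper to lower ratio was 1.64 (1.38 to 1.94), short of the rule. Slc30a2 lies on chromosome 4 at 134343181 to 134354484 on the plus strand.

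Paneth cell markers, like Slc30a2, were much lower in the large intestine, as were the enterocyte and T cell markers described below. The 6 Paneth markers summed to 32.8 FPKM in the large intestine, where Defa17 was listed at 0. They summed to 17510 FPKM in the upper and 17736 FPKM in the lower small intestine, where all were above 1 FPKM. Between the small intestinal libraries these sums were close, whereas Slc30a2 was higher in the upper. In bulk RNA, fewer cells of a type and less RNA per cell cannot be told apart. Per 1000 FPKM of summed Paneth markers, Slc30a2 stood at 4.27 in the large, 1.86 in the upper and 1.12 in the lower library, the first of these from about 1 read. Markers of pancreatic acinar cells, which also express Slc30a2 and Slc39a5, were all 8 listed at 0 in the large library, summed to 57.2 FPKM in the upper, with Ctrb1 highest at 15.5 FPKM, and were all listed at 0 in the lower. The level of Slc30a2 in the lower library thus stood beside acinar markers at 0, and the part of either cell type in the upper value was not tested.

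Slc30a5 encodes ZnT5, which works with ZnT6 in the early secretory pathway and there supplies zinc to enzymes such as alkaline phosphatases. It was at 19.8 FPKM in the large intestine, 47.3 FPKM in the upper and 39.9 FPKM in the lower small intestine. It was lower in the large than in the upper small intestine at a ratio of 0.418 (0.326 to 0.535). Against the lower part the ratio of 0.496 (0.392 to 0.631) gave a log2 difference of -0.98, just short of the rule. Slc30a6, the partner's gene, was level at 10.4 FPKM in the large, 11.6 FPKM in the upper and 9.41 FPKM in the lower library. The Slc30a5 to Slc30a6 ratio was therefore 1.91 in the large intestine, 4.08 in the upper and 4.24 in the lower small intestine. Slc30a7, whose product ZnT7 serves the Golgi apparatus, was at 9.76 FPKM in the large, 6.41 FPKM in the upper and 9.03 FPKM in the lower library and passed no rule.

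The 2 exporters that separated upper from lower small intestine did so in opposite directions. Slc30a10 encodes ZnT10, which exports manganese. It had 11.4 FPKM in the large intestine, 11.9 FPKM in the upper and 4.51 FPKM in the lower small intestine. The lower library was thus the low one: the large to lower ratio was 2.53 (2.19 to 2.93) and the upper to lower ratio 2.64 (2.28 to 3.06). The large to upper ratio of 0.96 (0.849 to 1.08) showed no difference detectable at this depth, and its sign turned when libraries were rescaled to the same sum. Slc30a10 lies on chromosome 1 at 185454848 to 185468762 and overlaps the non-coding gene Gm2061 on the other strand, which was at 2.65 FPKM in the large, 1.03 FPKM in the upper and 1.48 FPKM in the lower library.

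Slc30a1 encodes ZnT1, the exporter at the basolateral membrane through which zinc leaves enterocytes, and is a known target of MTF1. It was at 11.7 FPKM in the large intestine, 8.12 FPKM in the upper and 17.7 FPKM in the lower small intestine. It was lower in upper than in lower small intestine at a ratio of 0.459 (0.318 to 0.662), a log2 difference of -1.04. The lower library was thus the highest for Slc30a1 and the lowest for Slc30a10. Their promoter windows are shown because these members of the same family took opposite directions. They are chr1:191906531-191906830 for Slc30a1 and chr1:185454598-185454897 for Slc30a10, with capitals as above.
Slc30a1: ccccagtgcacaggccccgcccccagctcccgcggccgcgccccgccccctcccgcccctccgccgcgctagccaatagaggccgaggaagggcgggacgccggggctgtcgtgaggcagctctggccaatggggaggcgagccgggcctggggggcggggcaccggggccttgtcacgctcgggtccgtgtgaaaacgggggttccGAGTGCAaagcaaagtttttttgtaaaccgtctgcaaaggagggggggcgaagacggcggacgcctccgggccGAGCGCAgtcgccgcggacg
Slc30a10: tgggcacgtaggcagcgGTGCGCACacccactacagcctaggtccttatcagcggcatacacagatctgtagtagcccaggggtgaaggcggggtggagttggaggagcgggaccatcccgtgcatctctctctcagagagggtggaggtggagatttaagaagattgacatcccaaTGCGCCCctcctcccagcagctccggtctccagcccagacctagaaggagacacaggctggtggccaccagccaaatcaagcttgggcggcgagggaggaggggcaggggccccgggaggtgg

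The Slc30a1 window held 1 match of each form, both against the gene's strand. The Slc30a10 window held 3 matches of the form TGCGCNC, of which those at -233 and -232 overlap as the 2 strands of nearly the same letters. Slc30a4, encoding the vesicular transporter ZnT4, was flat at 21.3 FPKM in the large, 19.7 FPKM in the upper and 19.9 FPKM in the lower library. Slc30a9 was likewise flat, at 20.9, 20.8 and 17.8 FPKM in the large, upper and lower libraries. Summed over the family, the Slc30 genes held 105 FPKM in the large intestine, 158 FPKM in the upper and 138 FPKM in the lower small intestine.

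Most zinc importers, the Slc39 genes, stayed within the rule of size across the 3 epithelia, and Slc39a5, Slc39a8 and Slc39a14 did not. Slc39a4 encodes ZIP4, the importer of dietary zinc at the apical membrane, whose loss in humans causes acrodermatitis enteropathica. It was at 83.7 FPKM in the large intestine, 80.8 FPKM in the upper and 88.0 FPKM in the lower small intestine. In the values as deposited, all 3 ratios between libraries had intervals that included 1 by the shortest transcript of 379 nt. The longest has 2750 nt and gives narrower intervals, so whether a difference was detectable may depend on the length taken. By the longest, the lower bound of the upper to lower ratio was 0.863 rather than 0.774. The large to lower ratio was 0.951 (0.808 to 1.11) and the large to upper ratio 1.04 (0.863 to 1.24). The upper to lower ratio was 0.919 (0.774 to 1.09). With libraries rescaled to the same sum, the log2 differences of Slc39a4 were 0.23 in large against lower and 0.46 in large against upper. Both lay outside the counting intervals of the deposited ratios.

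Slc39a5 encodes ZIP5, an importer at the basolateral side of enterocytes, and had 45.95 FPKM in the large intestine, 103 FPKM in the upper and 89.4 FPKM in the lower small intestine. The large to upper ratio was 0.444 (0.38 to 0.518), past the rule, and the large to lower ratio 0.514 (0.443 to 0.596), a log2 difference of -0.95, just short of it. The Slc39a5 to Slc39a4 ratio was 0.55 in the large intestine, 1.28 in the upper and 1.02 in the lower small intestine. Acinar markers summed to 57.2 FPKM in the upper library and were listed at 0 in the large and lower libraries. Their part in the levels of Slc39a5 was not tested. All of Slc39a5, on chromosome 10 at 128395931 to 128401229, lies within Ankrd52 on the other strand, which was even across libraries at 13.4 FPKM in the large, 10.8 FPKM in the upper and 11.6 FPKM in the lower.

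Slc39a8 and Slc39a14 encode ZIP8 and ZIP14, related importers that carry manganese and iron as well as zinc, and their genes took opposite directions. Slc39a8 was at 13.1 FPKM in the large intestine, 6.07 FPKM in the upper and 5.97 FPKM in the lower small intestine. Its large to lower ratio was 2.2 (1.83 to 2.66), past the rule, and its large to upper ratio 2.16 (1.75 to 2.68) lay just under it once the pseudocount was added. Slc39a14 was at 13.5 FPKM in the large intestine, 47.1 FPKM in the upper and 27.9 FPKM in the lower small intestine. Its large to upper ratio was 0.287 (0.2 to 0.415), and its large to lower ratio of 0.485 (0.333 to 0.701) stopped just short of the rule. The Slc39a14 to Slc39a8 ratio was 1.03 in the large intestine, 7.75 in the upper and 4.67 in the lower small intestine. Slc39a8 lies on chromosome 3 at 135825279 to 135888572 and Slc39a14 on chromosome 14 at 70303469 to 70351425.

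The other measured Slc39 genes passed the rule in no comparison. Slc39a7, for the endoplasmic reticulum transporter ZIP7, was at 59.4 FPKM in the large, 50.3 FPKM in the upper and 55.1 FPKM in the lower library. Slc39a1, a plasma membrane importer of many tissues, was at 43.9, 35.0 and 38.9 FPKM in the large, upper and lower libraries. Slc39a11 was at 38.7, 28.0 and 29.8 FPKM, and Slc39a9 at 37.0, 27.4 and 28.6 FPKM, in the same 3 libraries. All 4 were highest in the large intestine as deposited. The counting interval of the large to upper ratio lay above 1 for Slc39a1, Slc39a9 and Slc39a11, and that of the large to lower ratio only for Slc39a1, at 1.13 (1.03 to 1.24). That contrast depends on the length taken. The lower bounds against lower were 0.996 for Slc39a9 and 0.995 for Slc39a11 by the shortest transcript, and 1.208 and 1.182 by the longest. Against upper, that of Slc39a7 was 0.906 by the shortest and 1.082 by the longest. Slc39a3, Slc39a10 and Slc39a13 were low, between 1.95 and 6.73 FPKM. Slc39a6 was at 0.623 FPKM in the large, 1.74 FPKM in the upper and 1.42 FPKM in the lower library. By its shortest transcript of 337 nt these levels stood for 2 to 5 reads, too few to place the libraries in order. Its longest transcript has 3882 nt and would imply more reads. Reads of Slc39a6, Slc39a9, Slc39a11, Slc39a13, Slc31a1 and Mtf1 could be shared with protein-coding genes on the other strand that overlap them, since whether counting used strand is not known. Summed over the family, the Slc39 genes held 348 FPKM in the large intestine, 389 FPKM in the upper and 375 FPKM in the lower small intestine.

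**Figure D3:**
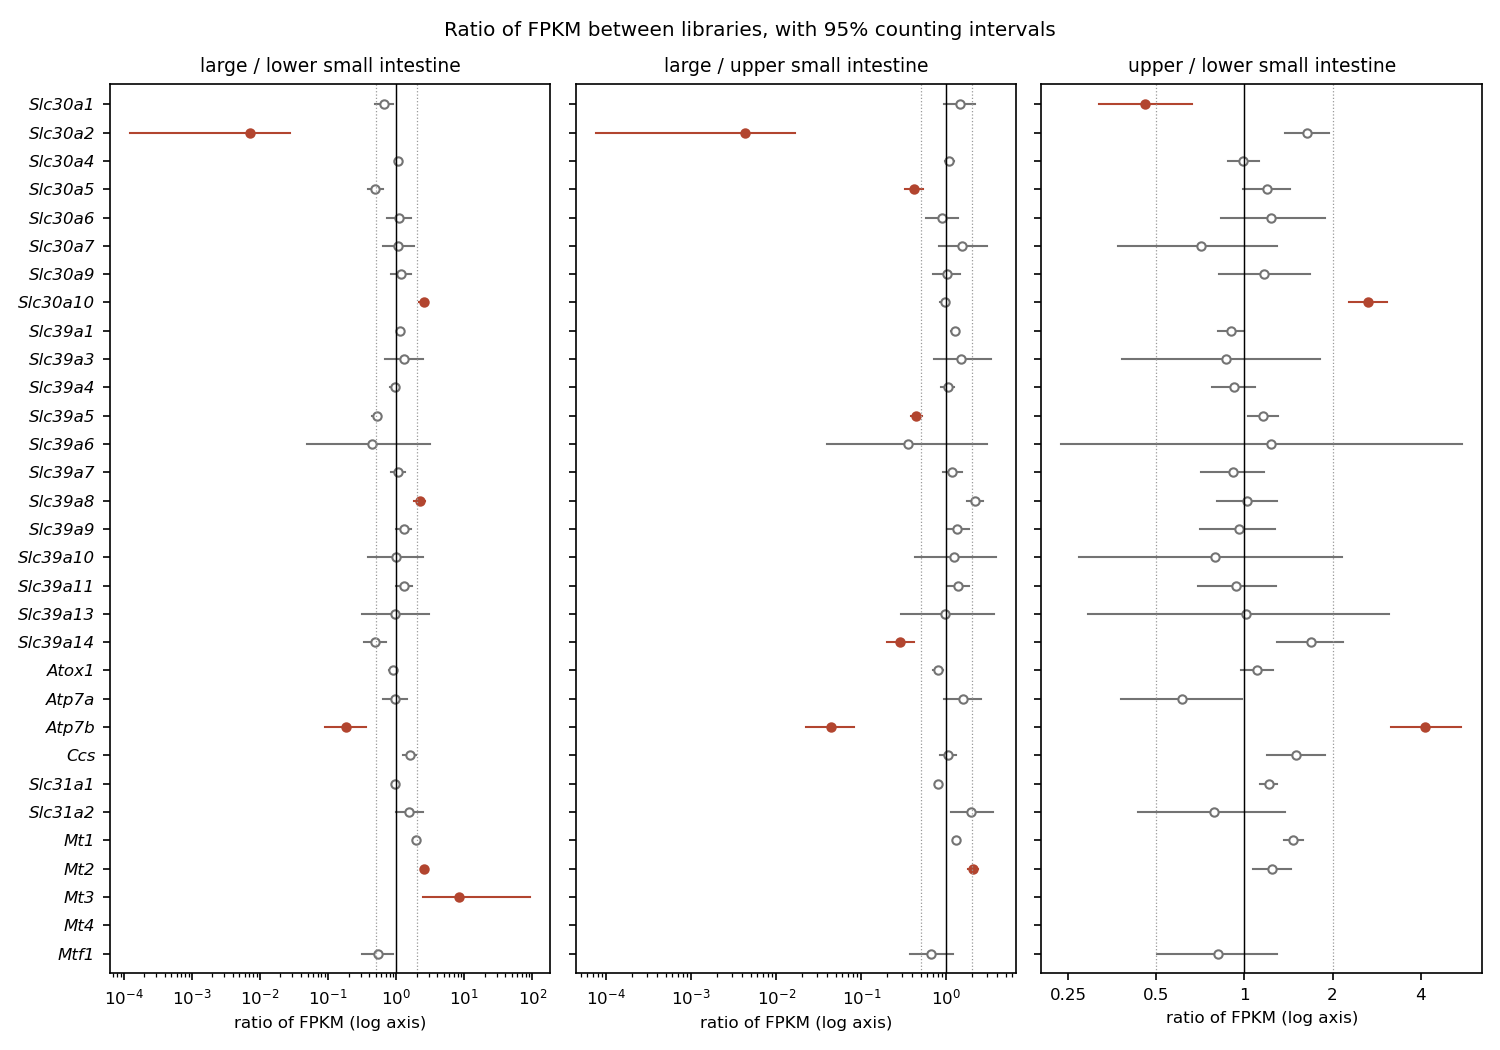
Ratio of FPKM between libraries on a log axis for measured members listed above 0 in both libraries, 1 panel per comparison, with Mt4 shown without a point. Horizontal lines are 95% counting intervals, filled red points mark members past the rule of size, dotted lines mark ratios of 0.5 and 2, and the axis range differs between panels. Slc30a2 and Atp7b lie far to the left against both small intestinal libraries, at 0.00705 and 0.183 against lower.

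Of the 6 copper genes, Atp7b alone passed the rule of size as deposited, and several others differed by less but beyond counting error. Slc31a1 encodes CTR1, the high-affinity copper importer, and was at 48.2 FPKM in the large intestine, 60.1 FPKM in the upper and 49.6 FPKM in the lower small intestine. Atox1, for the chaperone that brings copper to ATP7A and ATP7B, was the most abundant copper gene, at 144 FPKM in the large, 178 FPKM in the upper and 162 FPKM in the lower library. Large to upper ratios were 0.803 (0.748 to 0.861) for Slc31a1 and 0.805 (0.699 to 0.923) for Atox1. Both log2 differences were -0.31 as deposited. When libraries were rescaled to the same sum they changed sign, to 0.09 for Slc31a1 and 0.1 for Atox1. With short RNA genes left out of that sum they did not, at -0.02 and -0.01. Ccs, for the chaperone of superoxide dismutase 1, was at 42.9 FPKM in the large, 40.9 FPKM in the upper and 27.2 FPKM in the lower library. Its large to lower ratio of 1.58 (1.27 to 1.96) exceeded counting error without passing the rule. Slc31a2, encoding the related CTR2, was at 7.14 FPKM in the large, 3.62 FPKM in the upper and 4.61 FPKM in the lower library. Its large to upper ratio was 1.97 (1.14 to 3.51), short of the rule as deposited.

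Atp7b encodes the copper pump that is mutated in Wilson disease and best known from the liver. It had 0.315 FPKM in the large intestine, 7.11 FPKM in the upper and 1.72 FPKM in the lower small intestine, about 11, 212 and 76 reads. All 3 comparisons passed the rule. The large to upper ratio was 0.0443 (0.0223 to 0.0826), the large to lower ratio 0.183 (0.0901 to 0.356) and the upper to lower ratio 4.14 (3.18 to 5.48). Atp7a, encoding the pump that exports copper from enterocytes and is mutated in Menkes disease, passed in none, at 8.46 FPKM in the large, 5.37 FPKM in the upper and 8.75 FPKM in the lower library. Its upper to lower ratio was 0.614 (0.38 to 0.983). The Atp7a to Atp7b ratio was 26.9 in the large intestine, 0.76 in the upper and 5.10 in the lower small intestine. Atp7b lies on chromosome 8 at 21992785 to 22060305 on the minus strand, and no other annotated gene overlaps it.

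Set against all measured genes, the members were called about as often as other genes. In large against lower, 7 of 31 members passed the rule, 22.6%, where 20.2% of 12376 genes did. Of these, 5 were higher and 2 lower, where 9.75% of all measured genes were higher and 10.5% lower. In large against upper, 8 of 31 passed, 25.8%, where 22.9% of 12350 genes did, with 3 higher and 5 lower against 11.2% and 11.7% of all genes. In upper against lower, 3 of 29 passed, 10.3%, where 6.84% of 11941 genes did, with 2 higher and 1 lower against 3.92% and 2.92%. Median log2 differences of the measured members were 0.10, 0.11 and 0.02 in these comparisons, beside 0.0, 0.0 and -0.03 over all measured genes. The first 2 comparisons share the large intestinal library. The large to lower comparison does not use the library with the strain entry.

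**Figure D4:**
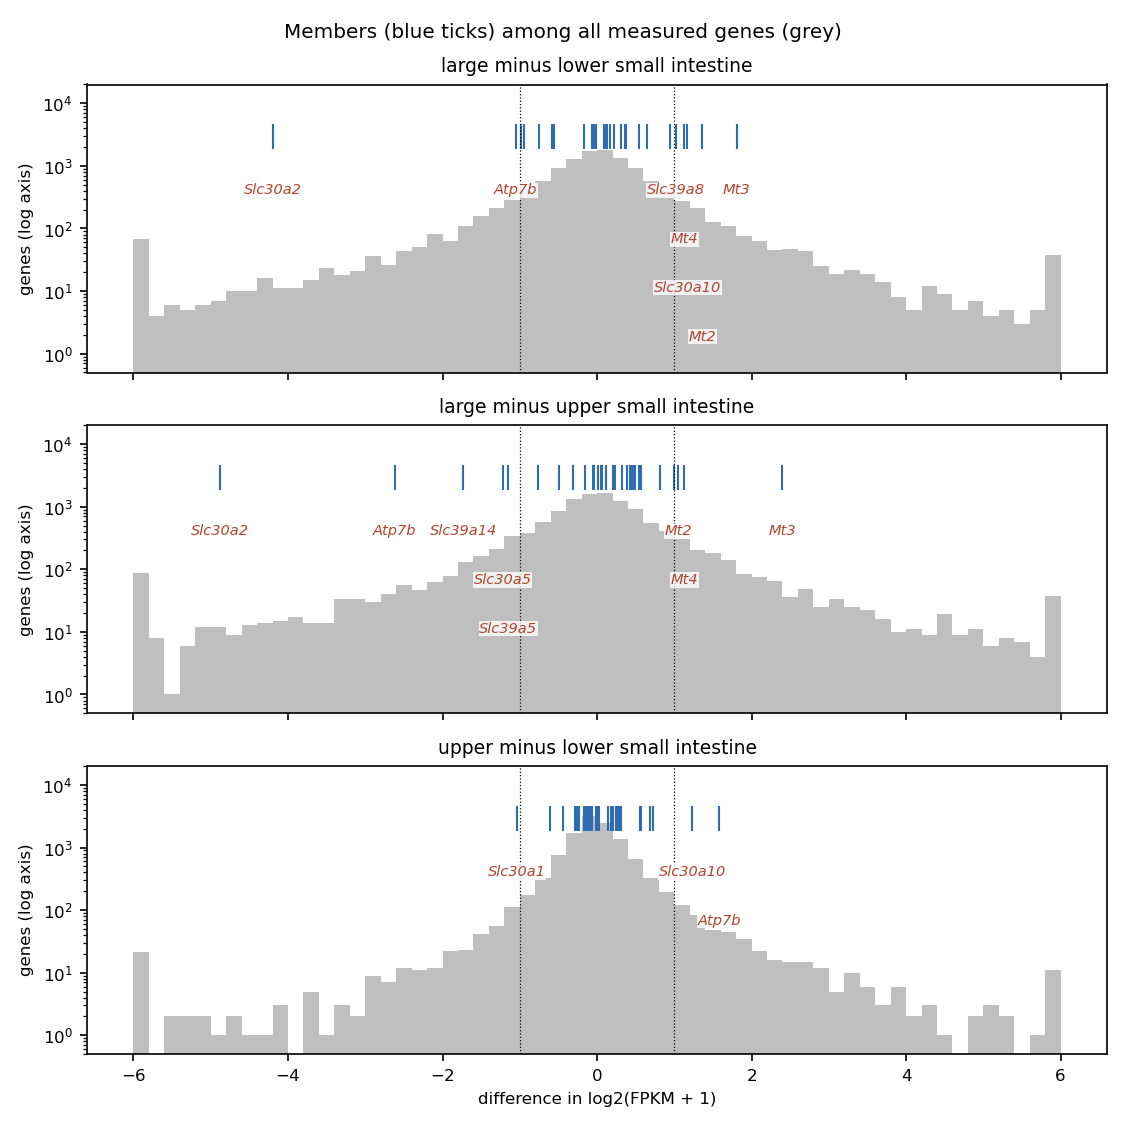
Distribution of the difference in log2(FPKM + 1) over all measured genes (grey bars, number of genes on a log axis, values beyond 6 in either direction placed in the end bars), 1 panel per comparison. Blue ticks are the measured members, names in red are members past the rule of size, which dotted lines mark at -1 and 1. Most members lie in the central mass, and Slc30a2 lies farthest out, at -4.19 and -4.88.

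These shares depend on how the libraries are scaled. Among all genes called in large against lower, 48.2% were higher as deposited and 64.0% when libraries were rescaled to the same sum, and against upper the shares were 49.0% and 69.0%. That rescaling moved the median of all measured genes to 0.28 against lower and 0.37 against upper. Under it Mt1 passed the rule against lower, Atp7b no longer did, and against upper Slc31a2 and Slc39a8 passed while Slc30a5 and Slc39a5 no longer did. No called member changed its direction in any scaling.

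Genes tied to zinc and copper outside the members were looked at as 3 lists. Among 9 zinc sensors and metallothionein regulators, 7 were measured. Klf4, for a transcription factor known to drive Slc39a4 in mouse intestine, was higher in the large intestine, at 271 FPKM against 88.3 FPKM in the upper and 115 FPKM in the lower small intestine. Gpr39, for a receptor that senses extracellular zinc, was lower in the large intestine at 1.58 FPKM against 5.87 FPKM in the upper, with 3.32 FPKM in the lower. No other gene of the list passed the rule in any comparison. The called share was 14.3% in large against lower and 28.6% in large against upper, beside 20.2% and 22.9% of all measured genes. Nfe2l2, for the oxidative stress factor NRF2, was at 126 FPKM in the large, 151 FPKM in the upper and 75.2 FPKM in the lower library. Cbwd1 was at 5.81 FPKM in the large, 6.65 FPKM in the upper and 4.95 FPKM in the lower library. Nr3c1, for the glucocorticoid receptor, was at 20.4 FPKM in the large, 33.4 FPKM in the upper and 30.9 FPKM in the lower library.

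Among 31 genes of copper delivery and copper enzymes, 19 were measured in the large to lower comparison, with 1 called higher and 1 called lower, or 10.5% beside 20.2% of all measured genes. Large against upper gave 3 higher and 4 lower of 20, or 35.0% beside 22.9% of all, few genes in either case. Pam, for the copper enzyme that amidates peptide hormones, had 37.6 FPKM in the large intestine, 3.25 FPKM in the upper and 4.64 FPKM in the lower small intestine. Aoc1, for diamine oxidase, had 107 FPKM in the large, 237 FPKM in the upper and 216 FPKM in the lower library. Sco2, which helps deliver copper to cytochrome c oxidase, had 15.0 FPKM in the large, 67.2 FPKM in the upper and 23.0 FPKM in the lower library, and was the only gene of the list called between upper and lower. Steap3, a metalloreductase gene, had 13.9 FPKM in the large, 5.42 FPKM in the upper and 6.6 FPKM in the lower library and was called higher against upper. Prnp, for the copper-binding prion protein, was called higher against upper too, at 79.2 FPKM in the large, 39.1 FPKM in the upper and 47.0 FPKM in the lower library. Slc11a2, for the iron importer DMT1, had 12.9 FPKM in the large, 26.9 FPKM in the upper and 15.7 FPKM in the lower library. Moxd1 was called lower in large against upper, listed at 0 in the large and at 1.004 FPKM in the upper library, which barely reached the filter and the rule. Steap1 stayed at or under 5.84 FPKM. Sod1, the copper and zinc enzyme that Ccs serves, was at 598 FPKM in the large, 649.7 FPKM in the upper and 459 FPKM in the lower library.

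Of the zinc enzymes, 77.3% of 22 measured passed the rule in large against lower, with 6 higher and 11 lower, beside 20.2% of all measured genes. In large against upper it was 78.3% of 23, with 5 higher and 13 lower, beside 22.9% of all. The list holds brush-border and colonic enzymes that are known to differ by region, so its share was set by that choice. Car1, a carbonic anhydrase of colonocytes, had 6414 FPKM in the large intestine, 0.257 FPKM in the upper and 0.172 FPKM in the lower small intestine. Anpep, for the brush-border aminopeptidase N, had 6.34 FPKM in the large, 2250.4 FPKM in the upper and 2086 FPKM in the lower library. Akp3, an intestinal alkaline phosphatase gene, had 0.074 FPKM in the large, 286 FPKM in the upper and 1.08 FPKM in the lower library. It thus separated upper from lower, as did Adh1, at 775 FPKM in the large, 524 FPKM in the upper and 16.9 FPKM in the lower library. Mme, encoding the peptidase neprilysin, had 0.752 FPKM in the large intestine, 245.5 FPKM in the upper and 66.7 FPKM in the lower small intestine. Mmp7, encoding the Paneth cell protease matrilysin, had 1.47 FPKM in the large, 188 FPKM in the upper and 309 FPKM in the lower library. Car2, another carbonic anhydrase gene, had 994.5 FPKM in the large, 22.0 FPKM in the upper and 3.72 FPKM in the lower library. Adh4, an alcohol dehydrogenase, was listed at 0 in the large intestine and had 9.89 FPKM in the upper and 0.457 FPKM in the lower small intestine.

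All 6 general epithelial markers were above 1 FPKM in every library, with sums between 3732 and 5026 FPKM. Colonocyte markers summed to 7730 FPKM in the large, 231 FPKM in the upper and 211 FPKM in the lower library, and enterocyte markers to 315, 24180 and 11939 FPKM in the same libraries. Markers of T cells, which sit within the epithelium, summed to 12.4 FPKM in the large, 561 FPKM in the upper and 565 FPKM in the lower library, with all 7 above 1 FPKM in both small intestinal libraries and 5 in the large. The highest genes of the marker lists were Krt8 for epithelium, Defa24 for Paneth cells in both small intestinal libraries, Gzma for T cells and Zg16 for goblet cells. Enteroendocrine markers summed to 229.6 FPKM in the large, 264 FPKM in the upper and 149 FPKM in the lower library. Goblet cell markers summed to 8356 FPKM in the large, 6298 FPKM in the upper and 7875 FPKM in the lower library. Sums for myeloid, fibroblast, smooth muscle, endothelial, neural and erythroid markers lay between 0.7 and 23.9 FPKM. The part of these cell types in the members' differences was not tested.

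**Figure D5:**
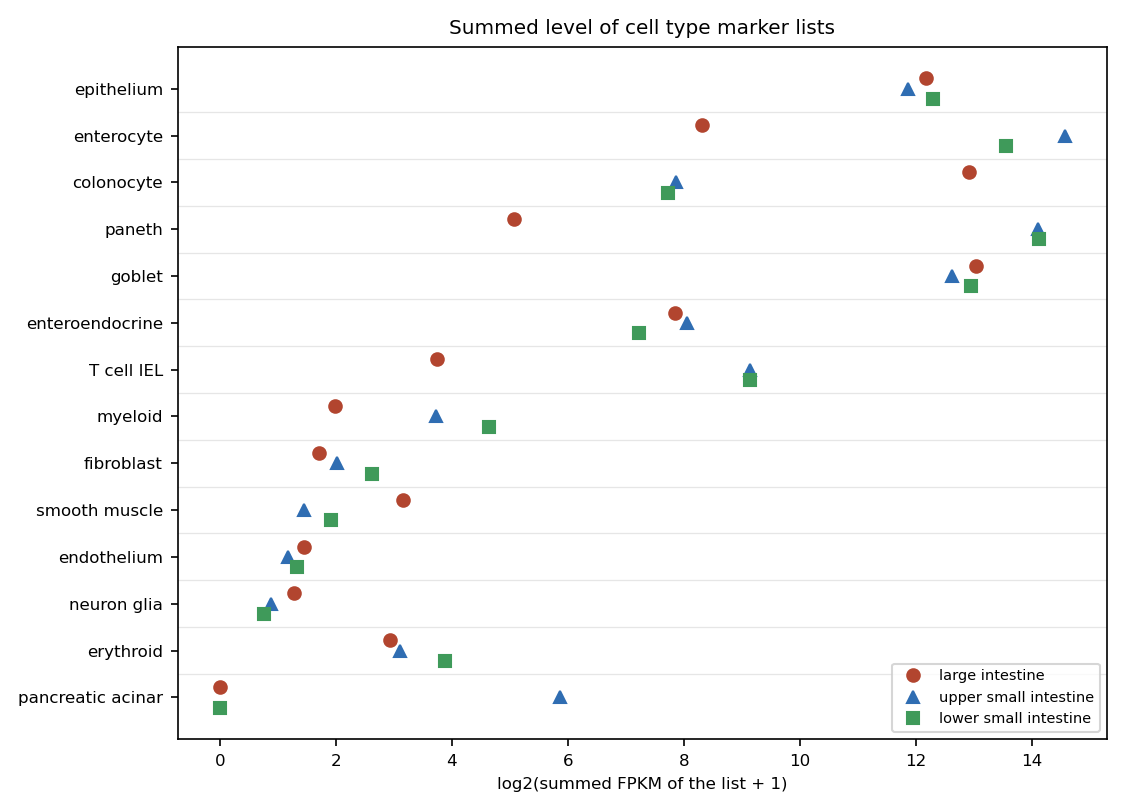
Summed FPKM of cell type marker lists as log2(sum + 1) on the horizontal axis, 1 row per list and 1 point per library (circle, large intestine; triangle, upper small intestine; square, lower small intestine). Paneth, enterocyte and T cell lists lie lower in the large intestine, and acinar markers reach 57.2 FPKM in the upper small intestine with both other libraries at 0.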

How the data were processed

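RNA sequencing of epithelial cells from 3 regions of the mouse intestine was used, 1 library per region. The authors deposited 1 value per gene and library, read here as FPKM. That unit was inferred, because the file headers name only the library. Per the submitters' processing notes, TopHat2 2.0.13, Bowtie2 2.2.3, SAMtools 0.1.19, Cufflinks 2.2.1 and the build mm10 were used, in roles not stated. No source used here gives the annotation, filters or strand setting. A listed 0 can be a failed estimate.

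FPKM summed to 521651 in the large, 693218 in the upper and 646262 in the lower library, while median ratios to the geometric mean were 0.998, 1.00 and 1.01. A scaling between libraries may thus precede deposit and would hide a shift of all genes.

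Reads per gene were implied from the step between low FPKM values, fitted over single-transcript genes no shorter than 1500 nt (GENCODE M21, GRCm38). Steps were 0.118, 0.136 and 0.0910 FPKM kb per read in the large, upper and lower libraries, and 69.8%, 72.4% and 73.1% of 394, 398 and 394 low genes fell within 0.15 read of a whole number. Lengths were those of the shortest transcript, which gives wide intervals. Recovery was too incomplete for a count test. Intervals and floors cover counting error only, as amplified reads carry no molecular identifiers. Step fitting and calls were checked on simulated data.

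Every member is accounted for. From each zinc or copper list outside the members, up to 4 measured genes of largest difference per comparison were named. Sod1 was named beside Ccs after its values were seen. Members and lists were chosen with earlier results of these data known. Calculations used Python 3.11.15, pandas 2.3.3 and scipy 1.17.1. Alternatives changed the pseudocount, filter, scaling, rule of size and transcript length. Protein sequences were not used here, and 1 marker list is not reported here.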

Additional observations from a re-analysis of the deposited data

How the results depend on the processing

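Counts of members called moved with the rule of size, the filter, the pseudocount and the scaling, and none of the members' log2 differences reversed a call. With a minimum of 5 FPKM, 3 members were higher and 1 lower in large against lower, and 1 was higher in large against upper, because Mt3, Mt4 and, against lower, Atp7b were no longer measured. The median of members in upper against lower was then 0.14. A pseudocount of 0.1 gave 5 lower members in large against lower, adding Slc30a5, Slc39a6 and Slc39a14. Rescaling to the same sum, with or without short RNA genes, left 1 member lower in large against lower, and gave 5 higher and 3 lower in large against upper. Medians of members were then 0.39 and 0.49 with short RNA genes, and 0.36 and 0.39 without them, against lower and upper. A rule of 1.5-fold gave 6 lower members in large against lower, 5 higher in large against upper, and 4 higher and 2 lower in upper against lower. Requiring the counting interval to lie beyond 1 and median-of-ratios scaling kept every count within 1.5 times. Implied reads from the longest transcript changed whether the lower bound of a ratio lay above 1 for 13 of 88 member ratios. Upper bounds were not compared, so ratios below 1 that depend on the length taken are not in that count. No paired analysis was possible because each region has 1 library. No library could be left out for the same reason. Members under about 10 FPKM with short transcripts, such as Mt4, rest on few reads. The transcripts of Slc39a6 run from 337 to 3882 nt, so its implied reads depend on the length taken.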
